A study of Mus musculus with 33 samples.

Results

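The 10 genes described here write, copy and erase methyl groups on DNA and set the repressive Polycomb mark on histone H3. They were chosen by symbol from the 21671 genes of the expression table, and all 10 were found: Dnmt1, Uhrf1, Dnmt3a, Dnmt3b, Tet1, Tet2, Tet3, Ezh2, Suz12 and Eed. Their RNA was measured by total RNA sequencing in 33 C57BL/6 mouse livers and liver nodules. In the first arm, mice aged 6 to 8 weeks received AAV8-TBG-CRE intravenously and 20 liver samples were collected 4 days later. AAV8-TBG-CRE is a virus that expresses Cre recombinase from the hepatocyte-specific TBG promoter, so the alleles were recombined in hepatocytes of otherwise unrecombined tissue. The groups were wild type (WT, 5 livers), beta-cat Ex3 (5 livers, here Ex3, a β-catenin allele that loses exon 3 and becomes stable after Cre), R26-lslMYC (5 livers, here MYC, a MYC transgene at Rosa26 behind a stop cassette that Cre removes) and R26-lslMYC/beta-cat Ex3 (5 livers, here MYC+Ex3). All 4 groups, the wild type included, carried the virus. In the second arm, primary liver nodules were taken from mice with Alb-CreERT2, a tamoxifen-activated Cre driven by the albumin promoter, combined with R26-lslMYC (3 nodules, here MYC tumours) or with R26-lslMYC and b-catEx3 (3 nodules, here MYC+Ex3 tumours). Their reference was 7 wild-type livers 4 days after 4-hydroxytamoxifen (4-OHT) injected into the peritoneum. The labels give no treatment for the nodules and no Cre allele for the 4-OHT livers, and the age of both is not given in the sources used here. A tumour and its reference therefore differed in genotype, treatment, time and tissue state at once, and these cannot be told apart.

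Methyl groups on cytosine are copied to the new DNA strand after replication by DNMT1, which UHRF1 recruits to half-methylated sites. DNMT3A and DNMT3B add methyl groups to unmethylated DNA, and the TET enzymes oxidise methylcytosine as the first step of its removal. Polycomb repressive complex 2 (PRC2) trimethylates lysine 27 of histone H3 through its catalytic subunit EZH2, or its homologue EZH1 in resting tissue, and needs SUZ12 and EED for its assembly and activity. Adult hepatocytes rarely divide, and UHRF1, DNMT1 and EZH2 are typical of replicating cells.

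The first-arm livers had 3749019 to 7313994 reads in genes, and the second-arm libraries had 6648579 to 9823986. Summed RPKM (reads scaled to gene length and library depth) was 320814 to 367521 in the first arm and 68987 to 97790 in the second, so levels are compared within an arm only. Axin2, a direct target of β-catenin, was 10.6 to 24.9 RPKM in the Ex3 livers and 2.73 to 4.30 in the wild type. In the MYC+Ex3 tumours Axin2 was 7.63 to 11.3 RPKM and in the MYC tumours 0.0946 to 0.660. The row named Myc was 3.12 to 4.81 RPKM in the MYC livers and 0.748 to 4.11 in the wild type, and did not separate these groups. Whether this row counts RNA of the transgene is not given in the sources used here, so it is no check of the allele. The 8 hepatocyte markers were present in every group, and none of the 8 was called in MYC against wild-type livers or in MYC tumours. Hnf4a fell by 0.29 in MYC+Ex3 against wild-type livers, and Alb and Ttr fell by 0.35 and 0.38 in MYC+Ex3 tumours. In 10 of the 20 first-arm livers the summed RPKM of the keratinocyte genes Krt5, Krt14 and Krt17 was 3.95 to 23.8, against at most 0.398 in the other 10. Such reads were in 3 wild-type, 3 Ex3, 1 MYC and 3 MYC+Ex3 livers, and results that this touches are also given within a set. The labels do not say that the libraries of a group come from separate animals, so the p-values measure the spread between these samples.

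Levels of the 10 genes spanned a wide range on the per-kilobase scale. In wild-type day 4 livers Suz12 had the highest level, 24.8 ± 4.2 RPKM (SD, n = 5). Eed followed at 16 ± 3.6 and Tet2 at 10.4 ± 3.1. Dnmt3a, Tet3, Ezh2, Dnmt1 and Dnmt3b lay between 7.97 and 3.23 on average, and from Suz12 down to Uhrf1 the ranges of neighbours in this order overlapped. Uhrf1 was at 1.36 ± 0.36 RPKM, above Tet1 in all 5 livers. Tet1 was at 0.224 ± 0.051 RPKM. It reached 1 RPKM in no library and was therefore not tested. Its reads numbered 5 to 48 per liver in the first arm and 22 to 79 per library in the second. In the MYC+Ex3 tumours Uhrf1 had the highest mean, 14 ± 1.9 RPKM (n = 3), with a range that overlapped that of Suz12, and Tet1 again the lowest.

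The comparison of MYC with wild-type livers asks what the MYC transgene does within 4 days. Of the 9 members tested, 4 rose and 0 fell, where 16.9% of the 13688 genes tested rose. Those that rose were the maintenance pair Uhrf1 and Dnmt1 and the PRC2 subunits Ezh2 and Eed, while no de novo methyltransferase and no TET gene passed the test. A gene counts as changed at a Benjamini-Hochberg adjusted p under 0.05 in limma on log2(RPKM + 1), and all changes below are differences on that scale, where the added 1 shrinks the change of a low gene. The median change was 0.39 for the members tested and 0.07 for all genes. Of all genes 2313 rose and 734 fell, a split that became 1880 and 1302 when libraries were rescaled by their median ratio, with the same 4 members called. In the MYC+Ex3 livers 4 rose and 0 fell against wild type, where 17.9% of genes rose, with the same 4 members. Rescaling changed the split of all genes there from 2455 higher and 846 lower to 2049 and 1301, and Eed was no longer called (0.39, limma adjusted p = 0.0782). Against Ex3 livers, 5 rose and 0 fell in MYC+Ex3, where 16.4% of genes rose, and the fifth was Suz12. The split of all genes in this comparison was 2249 higher and 644 lower, or 1940 and 956 after rescaling. In libraries without keratin reads alone 2 of the 5 members, Uhrf1 and Dnmt1, were called. In that fit 1654 of 13346 genes rose and 656 fell. The plot of RPKM by liver shows the 10 genes side by side.

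**Figure D1:**
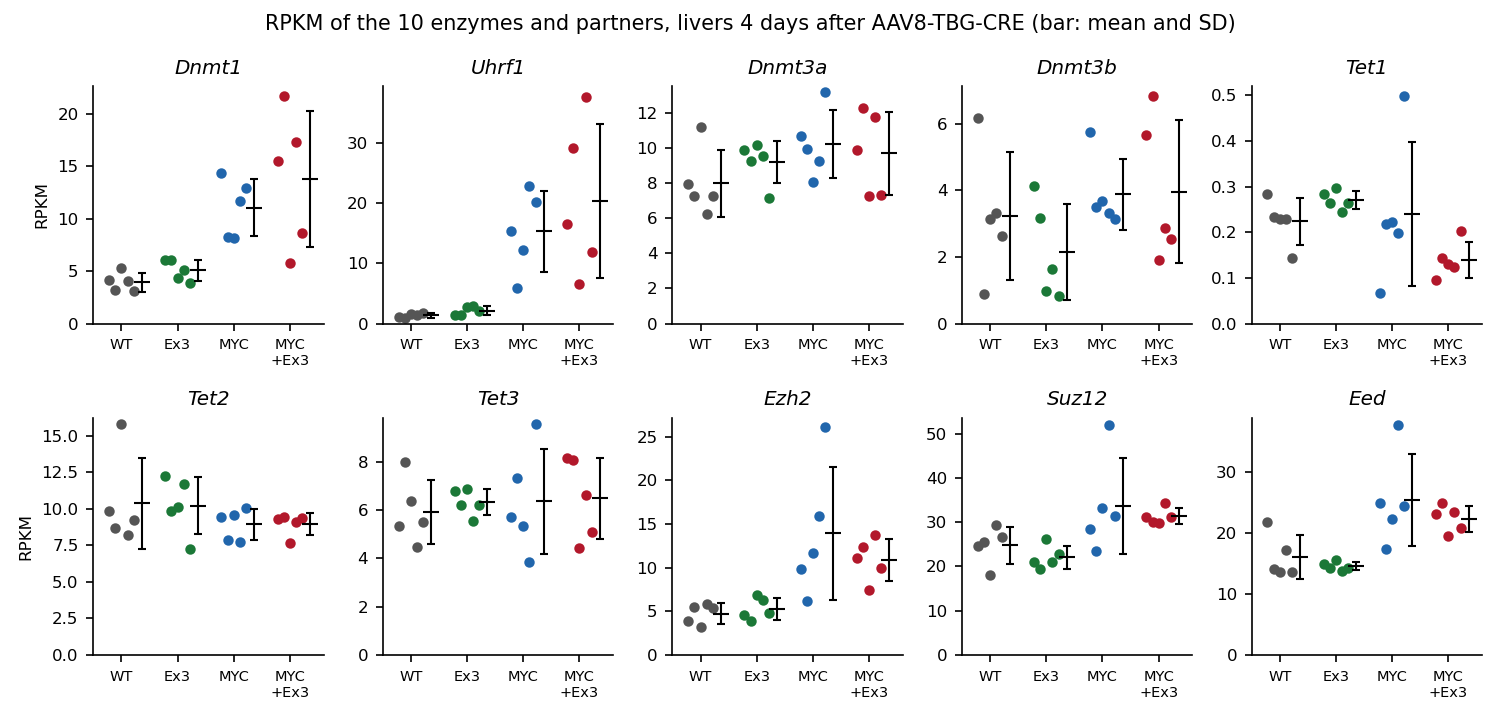
RPKM of each of the 10 genes (vertical axes, from 0) in the 20 first-arm livers, 1 point per liver, by genotype, with mean and SD as a bar beside the points. All 5 MYC livers lie above all 5 wild-type livers for Dnmt1, Uhrf1 and Ezh2, while the genotypes overlap for Dnmt3a, Dnmt3b, Tet2 and Tet3.

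Uhrf1, the reader of half-methylated DNA, showed the largest change of the 10 genes. In the 5 wild-type livers it was 1.07, 0.922, 1.53, 1.46 and 1.81 RPKM, and in the 5 MYC livers 15.4, 5.82, 12.2, 22.9 and 20.3. In the Ex3 livers it was 1.42, 1.45, 2.78, 2.89 and 2.14 RPKM, and in the MYC+Ex3 livers 16.5, 29.1, 6.57, 37.6 and 11.8. Every liver with the MYC allele thus lay above every liver without it, and the lowest of them, a MYC liver, was still above the highest Ex3 liver. The change was 2.68 ± 0.36 (SE) in MYC against wild type (limma adjusted p = 2.62e-05). It was 2.96 ± 0.36 in MYC+Ex3 against wild type (limma adjusted p = 6.29e-06) and 2.56 ± 0.36 against Ex3 (adjusted p = 4.62e-05). These calls held in every alternative processing and with any 1 library left out.

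Dnmt1, the maintenance methyltransferase itself, rose less steeply. It was 4.11, 3.17, 5.32, 4.02 and 3.13 RPKM in the wild-type livers, and 14.3, 8.28, 8.19, 11.7 and 12.9 in the MYC livers. In the Ex3 livers it was 6.07, 6.06, 4.34, 5.08 and 3.88 RPKM, and in the MYC+Ex3 livers 15.5, 21.8, 5.82, 17.4 and 8.65. The MYC livers all exceeded the wild-type and the Ex3 livers, and 1 of the MYC+Ex3 livers, at 5.82, fell within the range of the Ex3 group. The change was 1.27 ± 0.26 in MYC against wild type (limma adjusted p = 0.00128) and 1.47 ± 0.26 in MYC+Ex3 against wild type (limma adjusted p = 0.000275). Against Ex3 it was 1.17 ± 0.26 (limma adjusted p = 0.00261). Among libraries with keratin reads alone the change against Ex3 was 0.98 (limma adjusted p = 0.0724).

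The start regions of these 2 genes are shown because both rose together. They are 100-base stretches from the RefSeq promoter table for GRCm38.p6, read 5′ to 3′ on the strand of the gene. Windows of 250 bases before to 50 after each of the 15 start sites listed for the 10 genes were searched on both strands. The words searched were TTTCCCGC, TTTCGCGC, TTTGCCGC and TTTGGCGC, forms of the site bound by E2F factors, and CACGTG, the E-box that MYC with MAX can bind. Capitals mark a word found. The Dnmt1 stretch (chr9:20952774-20952873, minus strand, bases -250 to -151 from the start) holds TTTCGCGC on the opposite strand, read here as its reverse complement, and the same window has a second word, TTTGGCGC, at +34. The Uhrf1 stretch (chr17:56304082-56304181, plus strand, bases -231 to -132) holds TTTCGCGC on its own strand.
Dnmt1: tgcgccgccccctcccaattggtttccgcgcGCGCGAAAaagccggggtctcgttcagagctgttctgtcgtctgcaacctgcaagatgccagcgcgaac
Uhrf1: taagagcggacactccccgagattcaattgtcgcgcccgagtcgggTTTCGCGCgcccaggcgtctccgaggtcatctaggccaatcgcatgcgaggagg
An E2F word was present in 2.26% of all 32851 windows of the table, and in 4.82% of the 12417 windows with at least 10 CpG upstream. Of the 15 windows of the 10 genes 4 held one: 1 of the 3 of Dnmt1, 1 of the 2 of Uhrf1, and the single windows of Ezh2 and Suz12. The stretches printed are from those windows, and Eed, Dnmt3a, Dnmt3b, Tet1, Tet2 and Tet3 had none. These matches describe letters only, and no binding was measured.

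Ezh2, the catalytic subunit of PRC2, rose in every comparison of livers with MYC against livers without it. It was 3.95, 5.49, 3.15, 5.83 and 5.34 RPKM in the wild type, and 9.84, 6.19, 11.7, 15.9 and 26.0 in the MYC livers. In the Ex3 livers it was 4.54, 3.87, 6.86, 6.30 and 4.78 RPKM, and in the MYC+Ex3 livers 11.1, 12.3, 7.46, 13.8 and 9.93. The MYC livers lay above all wild-type livers, and 1 of them, at 6.19, fell within the Ex3 range. The change was 1.26 ± 0.26 in MYC against wild type (limma adjusted p = 0.00164) and 1.05 ± 0.26 in MYC+Ex3 against wild type (limma adjusted p = 0.00599). Against Ex3 it was 0.92 ± 0.26 (limma adjusted p = 0.0159). That last call was lost within libraries without keratin reads (change 1.29, limma adjusted p = 0.0841) and within those with them (change 0.68, adjusted p = 0.0647), fits with fewer libraries.

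Eed and Suz12, the partners of EZH2, changed by smaller amounts. Eed was 21.8, 14.1, 13.6, 17.2 and 13.5 RPKM in the wild-type livers, and 24.9, 17.4, 22.3, 37.6 and 24.4 in the MYC livers. The groups overlapped through 1 high wild-type and 1 low MYC liver. The change was 0.61 ± 0.16 (limma adjusted p = 0.0085) in MYC and 0.47 ± 0.16 in MYC+Ex3 (limma adjusted p = 0.0360). Against Ex3, whose 5 livers were at 13.8 to 15.6 RPKM, the MYC+Ex3 livers were at 19.4 to 24.9, a change of 0.58 ± 0.16 (limma adjusted p = 0.0123), or 0.68 among libraries without keratin reads (adjusted p = 0.0681). Among libraries without keratin reads the change against wild type was 0.34 in MYC (limma adjusted p = 0.334) and 0.45 in MYC+Ex3 (limma adjusted p = 0.184). In the authors' deposited table Eed had adjusted p-values of 0.0710 and 0.0521 in these 2 comparisons and would not be called. Fitted on MYC and wild-type livers alone, the MYC change had a limma adjusted p of 0.0602. The MYC+Ex3 call was also lost with wild-type liver 2, 3 or 5, or MYC+Ex3 liver 1, 2 or 4, left out (limma adjusted p up to 0.0904), and held in 14 of the 20 such fits.

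Suz12 was 24.5, 25.5, 18.1, 29.4 and 26.6 RPKM in the wild-type livers, and 28.5, 23.4, 33.2, 52.0 and 31.3 in the MYC livers. The ranges overlapped, and the difference of 0.39 ± 0.16 did not pass the test (limma adjusted p = 0.0833). With a term for the keratin-read set it was 0.52 (limma adjusted p = 0.00852), and without MYC liver 2 it was 0.51 (adjusted p = 0.0232). In MYC+Ex3 livers Suz12 was 31.2, 30.1, 29.8, 34.4 and 31.1 RPKM, above all 5 wild-type livers. That difference of 0.34 ± 0.16 did not pass either (limma adjusted p = 0.129), except without MYC liver 4 (adjusted p = 0.0428). Against Ex3 livers, at 21.0, 19.5, 26.2, 21.0 and 22.8 RPKM, the change of 0.49 ± 0.16 passed (limma adjusted p = 0.0326). It no longer passed among libraries without keratin reads (0.58, limma adjusted p = 0.0656), after rescaling (0.43, adjusted p = 0.0938) or with Ex3 liver 1, 2, 4 or 5 or MYC+Ex3 liver 1, 2 or 4 left out (adjusted p up to 0.0746). Suz12 was also 0.31 higher in libraries with keratin reads than in those without, with genotype in the model (limma adjusted p = 0.0249), where 25.9% of genes differed between these sets in either direction.

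The start regions of the 2 PRC2 genes with an E2F word are given for comparison with the maintenance pair. That of Ezh2 (chr6:47595016-47595115, GRCm38.p6, minus strand, bases -85 to +15) has TTTGGCGC at +4 to +11, and that of Suz12 (chr11:79992856-79992955, plus strand, bases -250 to -151) has TTTCCCGC.
Ezh2: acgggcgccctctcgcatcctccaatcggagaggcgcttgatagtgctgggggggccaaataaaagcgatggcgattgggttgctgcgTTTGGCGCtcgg
Suz12: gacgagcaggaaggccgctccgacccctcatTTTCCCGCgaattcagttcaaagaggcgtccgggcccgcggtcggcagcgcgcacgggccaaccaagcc
Both words lie on the strand of the gene. Suz12 carries one and passed the test in MYC+Ex3 against Ex3 livers and in tumours, but not in MYC against wild-type livers. Eed has none and rose in MYC livers. The part of these words in the changes was not tested.

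The de novo methyltransferases were not called at day 4. Dnmt3a was 6.21 to 11.2 RPKM in the wild-type livers and 8.03 to 13.2 in the MYC livers, a difference of 0.33 ± 0.17 with a 95% interval of -0.02 to 0.68 (limma adjusted p = 0.172). In MYC+Ex3 against wild type it was 0.25 (limma adjusted p = 0.309), or 0.40 with sample quality weights (adjusted p = 0.0246). A CACGTG word, present in 7.15% of all windows, was found among the 10 genes only at the third listed start of Dnmt3a (chr12:3891618-3891717, GRCm38.p6, plus strand, bases -126 to -27).
Dnmt3a: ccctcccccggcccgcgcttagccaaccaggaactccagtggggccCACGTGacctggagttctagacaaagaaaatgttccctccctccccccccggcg
Dnmt3b in the wild-type livers was 6.19, 0.883, 3.13, 3.33 and 2.64 RPKM, on 17 to 144 reads. In the MYC livers it was 5.77, 3.51, 3.69, 3.31 and 3.15 RPKM. The groups overlapped, with a difference of 0.31 ± 0.34 and an interval of -0.41 to 1.02 (limma adjusted p = 0.569). Dnmt3b was 0.86 lower in libraries with keratin reads than in those without, with genotype in the model (limma adjusted p = 0.00234). Among Ex3 livers it was 0.821 to 1.63 RPKM in the 3 with keratin reads and 3.17 to 4.13 in the 2 without. In MYC+Ex3 it was 1.91 to 2.86 in the 3 with and 5.67 to 6.83 in the 2 without. Its difference between MYC+Ex3 and Ex3 was 0.67 ± 0.34 (limma adjusted p = 0.179) and stayed at 0.67 with a term for the set, where it passed (limma adjusted p = 0.0394). With sample quality weights it was 1.16 (adjusted p = 0.00164).

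The TET genes, which start the removal of methyl groups, were not called in any first-arm comparison of the main test. Tet2 was 9.85, 8.70, 15.8, 8.22 and 9.25 RPKM in the wild-type livers, and 9.42, 7.88, 9.56, 7.74 and 10.1 in the MYC livers. The groups overlapped apart from the single wild-type liver at 15.8. The difference was -0.16 ± 0.16, with a 95% interval of -0.49 to 0.16 (limma adjusted p = 0.495). The same difference for MYC+Ex3 against wild type was -0.16 with an interval of -0.48 to 0.17 (limma adjusted p = 0.509). Tet3 differed by 0.06 ± 0.19 in MYC, interval -0.34 to 0.46 (limma adjusted p = 0.872), and by 0.10 in MYC+Ex3 (adjusted p = 0.757), or 0.38 there with sample quality weights (adjusted p = 0.0404). The Tet2 stretch before its start (chr3:133544391-133544490, GRCm38.p6, minus strand, bases -100 to -1) is given as that of a gene with none of the words searched.
Tet2: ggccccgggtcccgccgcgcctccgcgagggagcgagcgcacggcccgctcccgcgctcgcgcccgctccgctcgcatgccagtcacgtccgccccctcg
Its 250 bases before the start held 51 CpG, the highest number at any of the 15 start sites. Tet1 was 0.143 to 0.284 RPKM in the wild type, 0.0662 to 0.499 in MYC and 0.245 to 0.298 in Ex3 livers. In MYC+Ex3 livers it was 0.0953 to 0.202 RPKM, below all 5 Ex3 livers, on 7 to 15 reads against 16 to 23.

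Stabilised β-catenin alone left the 10 genes without a call. Of the 9 tested, 0 rose and 0 fell in Ex3 against wild type, where 0.132% of genes rose by limma. Those 18 genes became 7 and 11 without wild-type liver 4 and 5, and 5 and 6 without Ex3 liver 3 and 4. None of the 9 had an unadjusted limma p under 0.05, where 744 of the 13688 genes tested did. The authors' deposited table also called 0 of the members. The widest differences were Dnmt3b at -0.42, interval -1.14 to 0.29, and Uhrf1 at 0.39, interval -0.36 to 1.15 (limma adjusted p = 0.991 and 0.996). Adding Ex3 to MYC put 0 of the 9 and 461 of the 13688 genes tested at an unadjusted limma p under 0.05. It gave 0 calls among the 9 (0.19% of genes rose by limma) and 0 in the authors' deposited table. The 26 genes behind that share became 7 to 10 without MYC liver 1, 3 or 4 or MYC+Ex3 liver 1, 2, 3 or 5, and 17 without MYC liver 2. Uhrf1 then differed by 0.28, interval -0.48 to 1.04, and Ezh2 by -0.21, interval -0.76 to 0.34. The interaction of the 2 alleles was called for 0 of the 9 and for 0.0% of all genes as higher by limma, with 0 of the 9 and 132 of all genes at an unadjusted p under 0.05. For Uhrf1 its interval ran from -1.19 to 0.96, so differences of that size were not detectable here.

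Genes of DNA replication and cell division moved with these results. Of 16 such markers (among them Pcna, the Mcm2-7 genes, Mki67 and Ccnb1), 16 rose in MYC against wild type with a median of 2.80, and 16 rose in MYC+Ex3 with a median of 2.96. Their summed RPKM was 90.5 to 125 in wild-type, 120 to 292 in Ex3, 491 to 898 in MYC and 521 to 900 in MYC+Ex3 livers. The 2 Ex3 livers with sums of 262 and 292 also had the 2 highest values of Uhrf1 and Ezh2 in that group. Dnmt1 did not follow there: it was 4.34 and 5.08 RPKM in these 2 livers. In Ex3 livers 1 and 2, with sums of 121 and 120, Dnmt1 was 6.07 and 6.06 RPKM. Ex3 livers 3 and 4, with the higher sums, had keratin reads, and livers 1 and 2 did not. With genotype in the model, Dnmt1 was 0.42 lower in libraries with keratin reads (limma adjusted p = 0.0824). The sum and the keratin-read set cannot be told apart between these pairs of livers. The lowest Uhrf1, Dnmt1 and Ezh2 among MYC+Ex3 livers stood in the liver with the lowest sum, 521. That liver also had the fewest reads in genes of all libraries, 3749019, and the highest keratin sum, 23.8 RPKM. MYC liver 5 stood apart, with the highest Ezh2 of all livers, 26.0 RPKM, at a sum of 492. Of 7 stellate cell and fibroblast markers 1 rose and 2 fell in MYC livers, and 1 rose and 3 fell in MYC+Ex3 livers, against wild type. The part of replicating and other cells in these results was not tested. In whole liver a change in the number of cells of a type and a change in RNA per cell cannot be told apart.

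**Figure D2:**
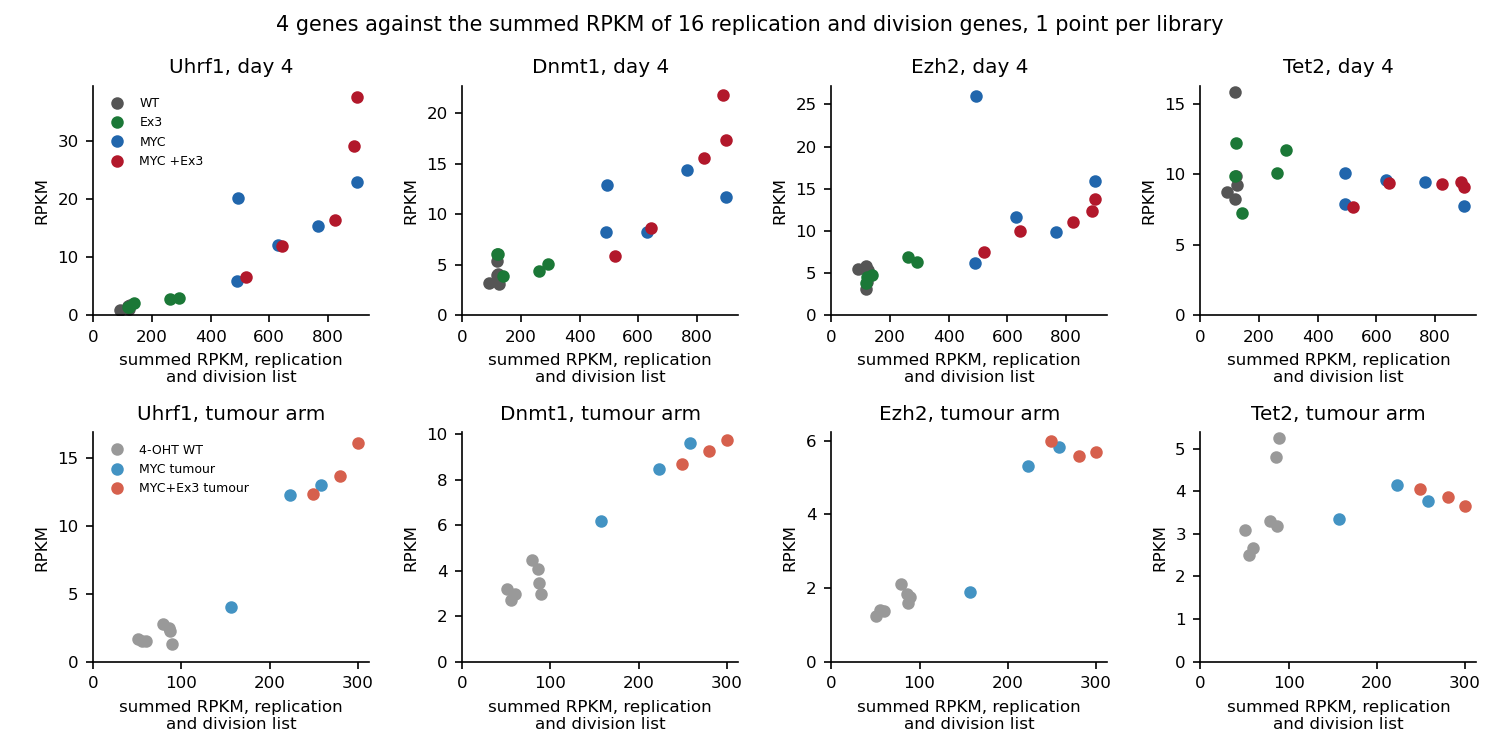
RPKM of Uhrf1, Dnmt1, Ezh2 and Tet2 (vertical axes) against the summed RPKM of 16 replication and division genes (horizontal axes), 1 point per library, first arm above and second arm below. In the first arm sums run from 90.5 to 900 and the livers with the highest sums have high Uhrf1 and Dnmt1, while Tet2 stays between 7.23 and 12.2 RPKM apart from 1 wild-type liver at 15.8.

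The second arm asks how tumours differ from 4-OHT livers. Of the 9 members tested, 7 rose and 0 fell in MYC tumours, where 36.2% of the 11854 genes tested rose by limma. In MYC+Ex3 tumours 7 rose and 0 fell, where 42.3% of genes rose. The 7 were the same in both: Dnmt1, Uhrf1, Dnmt3a, Dnmt3b, Ezh2, Suz12 and Eed. Tet2 and Tet3 were not called. Median changes were 0.94 and 1.23 for the members against 0.19 and 0.23 for all genes. Rescaling each library by its median ratio changed the split of all calls in MYC tumours from 4286 higher and 1621 lower to 3195 and 2788, and in MYC+Ex3 tumours from 5011 and 2178 to 3996 and 3242. After rescaling 6 and 7 members were still called higher. The plot of changes with their intervals sets both arms side by side without comparing their sizes.

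**Figure D3:**
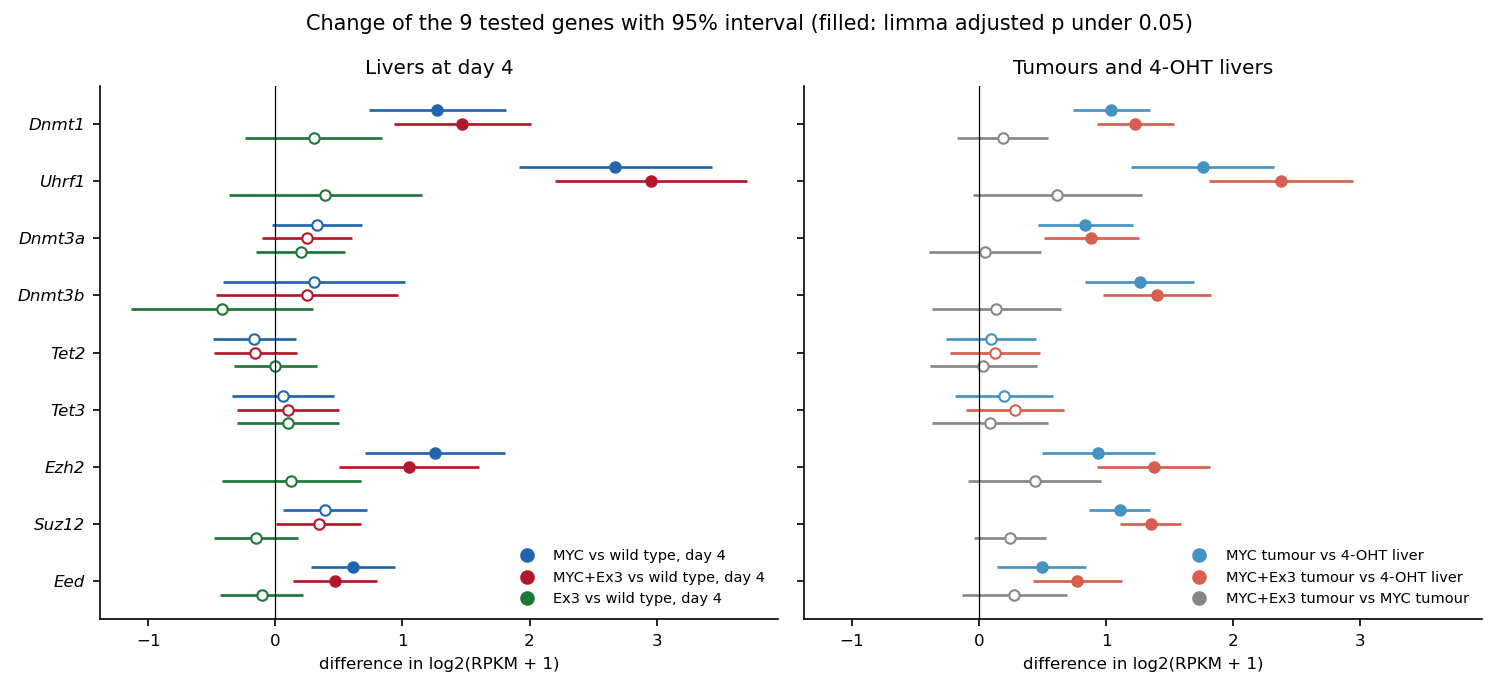
Difference in log2(RPKM + 1) of the 9 tested genes (points) with its 95% interval (lines), for 3 comparisons in each arm. Filled points passed a limma adjusted p under 0.05: at day 4 they are Dnmt1, Uhrf1, Ezh2 and Eed with MYC, in tumours also Dnmt3a, Dnmt3b and Suz12, and no point for Ex3 alone or between the tumour genotypes is filled.

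The maintenance pair was high in both kinds of tumour. Uhrf1 had a lowest, median and highest value of 1.31, 1.66 and 2.76 RPKM in the 7 4-OHT livers. It was 4.01, 12.2 and 13 in the MYC tumours and 12.3, 16.1 and 13.7 in the MYC+Ex3 tumours. All 6 tumours lay above all 7 livers, with MYC tumour 1 nearest to them. The change was 1.76 ± 0.26 (limma adjusted p = 0.000117) in MYC tumours, 1.58 after rescaling, and 2.38 ± 0.26 (limma adjusted p = 4.71e-06) in MYC+Ex3 tumours, 2.19 after rescaling. Dnmt1 was 2.71, 3.18 and 4.46 RPKM (lowest, median, highest) in the livers. It was 6.18, 8.50 and 9.63 in the MYC tumours and 8.72, 9.73 and 9.26 in the MYC+Ex3 tumours, again without overlap. Its changes were 1.04 ± 0.14 (limma adjusted p = 5.64e-05) and 1.23 ± 0.14 (adjusted p = 6.39e-06), or 0.85 and 1.03 after rescaling.

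All 3 PRC2 core subunits were higher in tumours. Suz12 was 4.24, 4.86 and 5.6 RPKM (lowest, median, highest) in the 4-OHT livers. It was 10.5, 10.8 and 13.4 in the MYC tumours and 11.9, 14.1 and 15.7 in the MYC+Ex3 tumours. The groups were far apart, and the changes were 1.11 ± 0.11 (limma adjusted p = 6.01e-06) and 1.35 ± 0.11 (adjusted p = 4.51e-07), or 0.91 and 1.15 after rescaling. Ezh2 was 1.24, 1.60 and 2.11 RPKM in the livers, 1.88, 5.30 and 5.83 in the MYC tumours, and 5.99, 5.69 and 5.58 in the MYC+Ex3 tumours. MYC tumour 1 lay within the range of the livers, and the other 5 tumours lay above it. The changes were 0.94 ± 0.21 (limma adjusted p = 0.00204) and 1.38 ± 0.21 (adjusted p = 6.25e-05), or 0.78 and 1.2 after rescaling. Eed was 3.07, 3.84 and 4.65 RPKM in the livers, 4.23, 5.09 and 8.52 in the MYC tumours, and 7.49, 6.31 and 7.69 in the MYC+Ex3 tumours, and 1 MYC tumour overlapped the livers. Its change in MYC+Ex3 tumours was 0.77 ± 0.16 (limma adjusted p = 0.000998). In MYC tumours it was 0.49 ± 0.16 (limma adjusted p = 0.0218), and this call ended after rescaling (0.31, limma adjusted p = 0.0703), with either title set of 4-OHT livers alone (adjusted p = 0.0767 and 0.0821), and without MYC tumour 3 (0.24, adjusted p = 0.189). The authors' deposited table gave Eed an adjusted p of 0.0655 in that comparison.

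**Figure D4:**
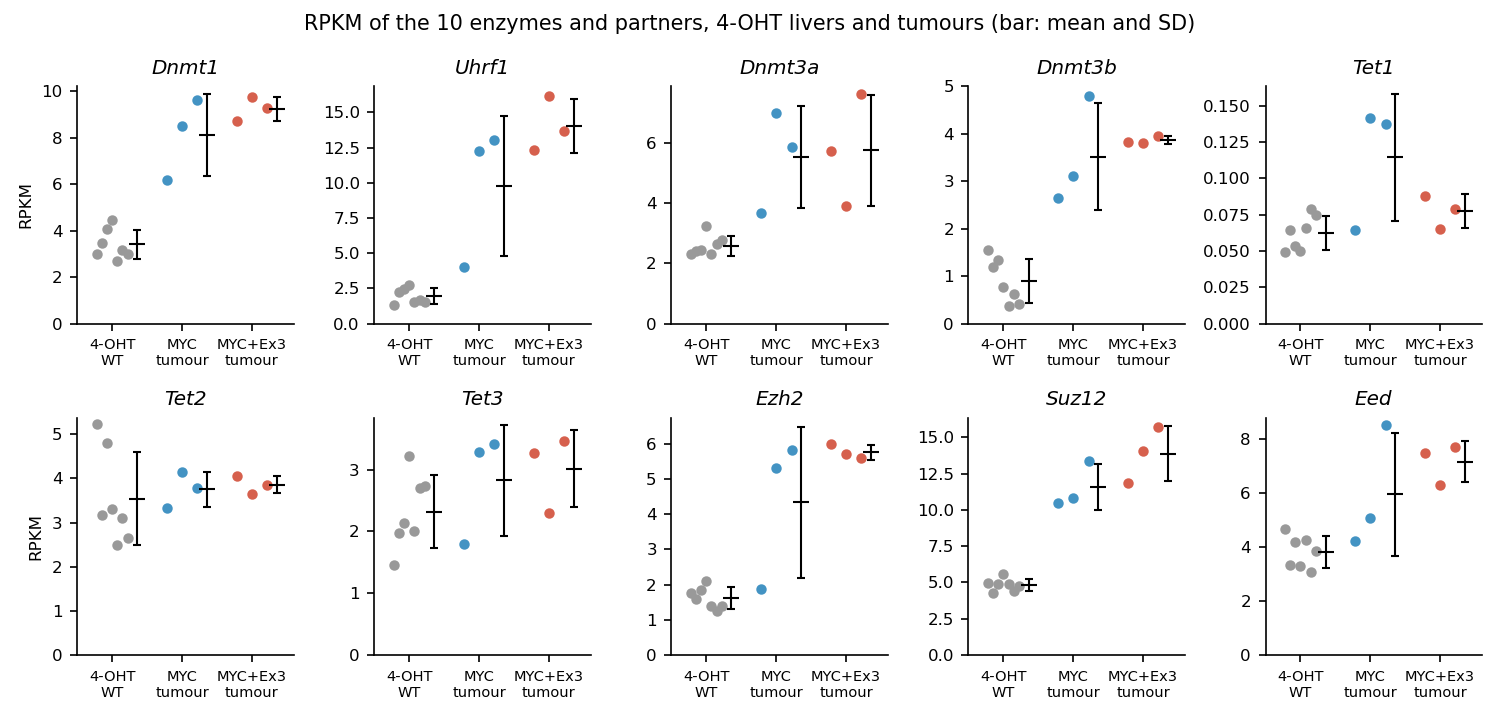
RPKM of each of the 10 genes (vertical axes, from 0) in 7 4-OHT livers, 3 MYC tumours and 3 MYC+Ex3 tumours, 1 point per library, with mean and SD as a bar beside the points. Dnmt1, Uhrf1, Dnmt3a, Dnmt3b and Suz12 are higher in all 6 tumours than in all 7 livers, while Tet2 and Tet3 overlap.

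Both de novo methyltransferases were called higher in tumours. Neither passed the main test at day 4, which does not show that they had not risen there, and the arms were not tested against each other. Dnmt3b was 0.366, 0.761 and 1.55 RPKM (lowest, median, highest) in the 4-OHT livers. It was 2.64, 3.11 and 4.78 in the MYC tumours and 3.83, 3.81 and 3.96 in the MYC+Ex3 tumours. The groups did not overlap, and the 3 MYC+Ex3 tumours were close to each other. The changes were 1.26 ± 0.20 (limma adjusted p = 0.000178) and 1.4 ± 0.20 (adjusted p = 3.93e-05), or 1.97 and 2.15 with a pseudocount of 0.1. The 4-OHT livers themselves fell apart by title: Dnmt3b was 0.761 to 1.55 RPKM in the 4 with titles in S14 and 0.366 to 0.627 in the 3 with S15. That difference of 0.58 had an unadjusted limma p of 0.00378 and an adjusted p of 0.285, and 0.177% of all genes differed between these sets. Dnmt3a was 2.29, 2.44 and 3.22 RPKM in the livers, 3.68, 7 and 5.86 in the MYC tumours, and 5.70, 3.91 and 7.61 in the MYC+Ex3 tumours. All tumours were above all livers, with changes of 0.83 ± 0.17 (limma adjusted p = 0.00144) and 0.88 ± 0.17 (limma adjusted p = 0.000595), or 0.66 and 0.70 after rescaling.

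The TET genes overlapped between tumours and livers. Tet2 was 2.50, 3.18 and 5.24 RPKM (lowest, median, highest) in the 4-OHT livers, 3.34, 4.14 and 3.78 in the MYC tumours, and 4.05, 3.66 and 3.86 in the MYC+Ex3 tumours. The tumours sat within the range of the livers. The differences were 0.09, interval -0.26 to 0.45, and 0.13, interval -0.23 to 0.48 (limma adjusted p = 0.662 and 0.519), and turned to -0.08 and -0.05 after rescaling. Among the livers Tet2 was 3.18 to 5.24 RPKM in the S14 set and 2.50 to 3.09 in the S15 set. Against the S15 livers alone the MYC+Ex3 difference was 0.37 (limma adjusted p = 0.0345). Tet3 differed by 0.20, interval -0.19 to 0.58, and by 0.28, interval -0.10 to 0.67 (limma adjusted p = 0.384 and 0.191). Tet1 was 0.0489 to 0.0785 RPKM in the livers, 0.0641, 0.142 and 0.138 in the MYC tumours and 0.0652 to 0.0881 in the MYC+Ex3 tumours. With no filter on low values it passed in MYC tumours with a difference of 0.07 (limma adjusted p = 0.0188), far below 1 RPKM.

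Between the tumour genotypes 0 of the 9 members were called. In MYC+Ex3 against MYC tumours, 2.10% of genes were lower by limma and 240, or 2.02%, were higher. Those 240 genes became 106, 118 and 82 without MYC+Ex3 tumour 1, 2 and 3, and 427 and 392 without MYC tumour 2 and 3. None of the 9 had an unadjusted limma p under 0.05, where 2089 of the 11854 genes tested did. The authors' deposited table called 0 of the members. The largest difference was that of Uhrf1, 0.62 with an interval of -0.05 to 1.28 (limma adjusted p = 0.327). For Ezh2 it was 0.44, interval -0.09 to 0.96 (limma adjusted p = 0.386), and for Dnmt1 0.19, interval -0.17 to 0.55 (adjusted p = 0.626). MYC tumour 1 had the lowest value of its group for all 10 members. Against the 4-OHT livers and without that tumour, the Uhrf1 change was 2.24 and that of Ezh2 1.33.

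Markers of other cells also differed between tumours and livers. The 16 replication and division genes all rose in both tumour comparisons, with medians of 1.39 and 1.83, and 0 of them were called between tumour genotypes. Their summed RPKM was 50.4 to 88.9 in 4-OHT livers, 157, 223 and 258 in MYC tumours and 249 to 300 in MYC+Ex3 tumours, and MYC tumour 1 had the lowest sum of the tumours. Of 7 macrophage markers measured, 6 fell in MYC tumours and 5 in MYC+Ex3 tumours, with sums of 104 to 140 RPKM in livers, 26.6 to 109 and 47.9 to 59.1. Of 7 endothelial markers 5 fell in each, with sums of 42.9 to 71.7, 24.0 to 39.6 and 25.7 to 30.2. Of 4 lymphocyte markers tested 0 fell in MYC and 4 in MYC+Ex3 tumours, with sums of 6.69 to 13.7, 2.70 to 12 and 3.60 to 4.05. Of 7 stellate cell and fibroblast markers 2 rose and 3 fell in MYC tumours, and 1 rose and 5 fell in MYC+Ex3 tumours, with sums of 40.7 to 53.6, 27 to 45.3 and 23.4 to 29.8. Of 3 neutrophil markers measured, 1 rose in MYC and 3 in MYC+Ex3 tumours, and 1 was higher in MYC+Ex3 than in MYC tumours. Their sums were 9.26 to 27.3, 9.88 to 70.7 and 77.9 to 95.9. Of 4 erythroid markers measured, 0 rose in MYC and 4 in MYC+Ex3 tumours. Erythroid sums were 13.4 to 30.9 in livers, 10.8 to 48.8 in MYC tumours and 50.2 to 59.8 in MYC+Ex3 tumours. None of these lists had a marker at 0 in all libraries of a group, and the part of these cells in the results was not tested.

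Ratios within a library do not depend on its scale, and 3 pairs were compared after their values had been seen. Their p-values are therefore no evidence apart from the calls of the single genes. Each pair was tested in 8 comparisons, 24 exact permutation tests in all, two-sided and adjusted together. Ezh2 relative to Ezh1, the PRC2 methyltransferase of resting cells, had a median of 0.736 in wild-type livers (range 0.339 to 0.911) and 1.61 in MYC livers (0.644 to 3.57). In MYC+Ex3 livers it was 1.25 to 1.72, above all wild-type and all Ex3 livers (adjusted exact permutation p = 0.0381 for each). MYC and wild type overlapped (exact permutation p = 0.0397, adjusted 0.0952). The ratio also differed by keratin reads. It was 0.736 to 0.911 in wild-type livers with them and 0.339 and 0.564 in those without. In Ex3 livers it was 0.670 to 0.963 with and 0.394 and 0.500 without. The single MYC liver with them was at 3.57 and the others at 0.644 to 3.27. MYC+Ex3 livers were at 1.32 to 1.72 with and 1.25 and 1.39 without. In the second arm the ratio was 0.532 to 0.770 in livers and 1.69 to 1.84 in MYC+Ex3 tumours (exact permutation p = 0.0167, the smallest this design allows, adjusted 0.05). It was 0.461, 1.82 and 2.06 in MYC tumours 1, 2 and 3, so that tumour 1 lay below every liver. Ezh1 itself was 7.27 ± 1.2 RPKM in wild-type and 7.65 ± 2.0 in MYC livers and was not called in either arm (limma adjusted p = 0.900 for MYC against wild type).

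Dnmt1 relative to Tet2, maintenance against removal, had a median of 0.364 in wild-type livers (0.336 to 0.489) and 1.28 in MYC livers (0.856 to 1.52). The groups were apart, as were MYC+Ex3 livers, at 0.761 to 2.31, from wild type and from Ex3 (adjusted exact permutation p = 0.0381 for each of the 3). Ex3 livers were at 0.429 to 0.617, which overlapped the wild type (exact permutation p = 0.0317, adjusted 0.0847). In the second arm the ratio was 0.567 to 1.35 in livers, 1.85 to 2.55 in MYC tumours and 2.15 to 2.66 in MYC+Ex3 tumours (adjusted exact permutation p = 0.05 for each tumour group against livers). Dnmt3b relative to Dnmt3a passed in none of its 8 comparisons, the smallest adjusted exact permutation p being 0.182.

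**Figure D5:**
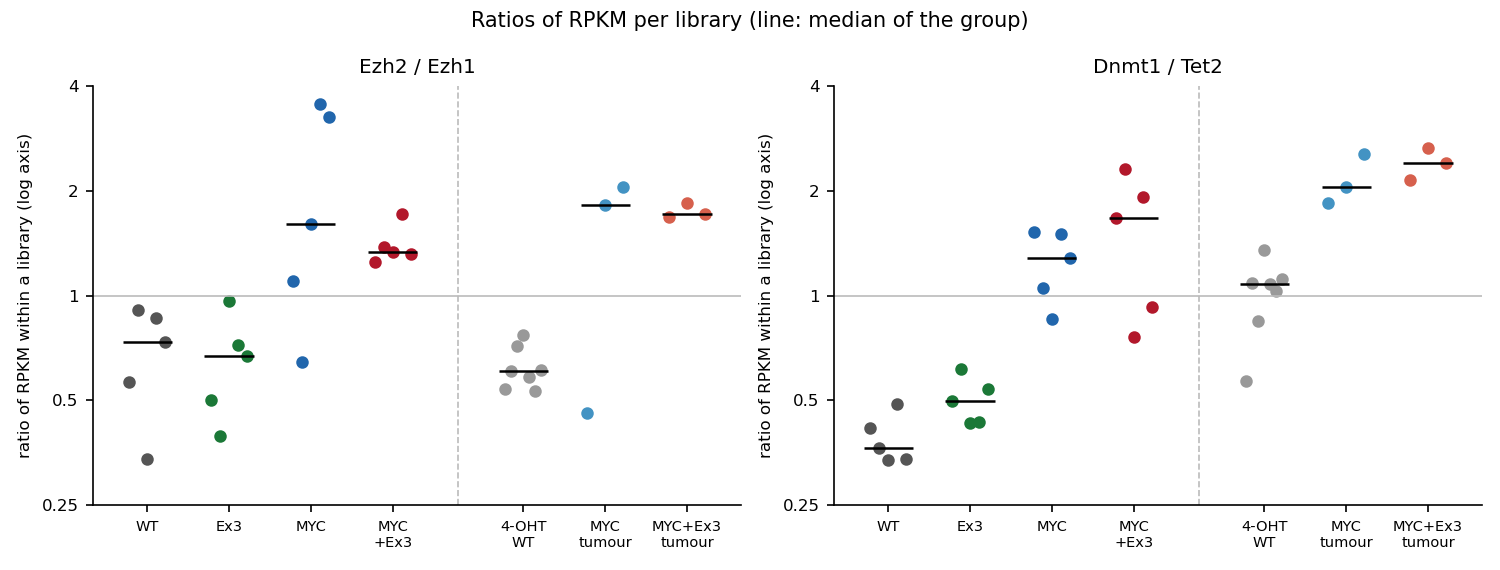
Ratio of RPKM within a library on a log axis (vertical), Ezh2 to Ezh1 on the left and Dnmt1 to Tet2 on the right, 1 point per library in 7 groups, with the median of each group as a line and the 2 arms divided by a dashed line. Ezh2 to Ezh1 is under 1 in all wild-type, Ex3 and 4-OHT livers and over 1 in all MYC+Ex3 livers and tumours, with 1 MYC liver and 1 MYC tumour under 1.

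The other genes of these pathways were read from lists, whose counts stand against the 16.9%, 17.9%, 36.2% and 42.3% of all genes that rose in MYC livers, MYC+Ex3 livers, MYC tumours and MYC+Ex3 tumours. Of 9 further PRC2 genes, 3 rose and 0 fell in MYC against wild-type livers. They were Rbbp7, a histone-binding subunit (0.75, limma adjusted p = 3.65e-05), E130012A19Rik, now named Epop, a PRC2 partner (1.16, adjusted p = 0.00774), and Aebp2, a DNA-binding cofactor (0.55, adjusted p = 0.0251). The same 3 rose in MYC+Ex3 livers. In each tumour comparison 5 of the 8 tested rose and Phf1, a subunit that reads histone H3 methylated at lysine 36, fell by 0.61 and by 0.77. Rbbp7 was 27 ± 3.9 RPKM in MYC+Ex3 and 15.7 ± 1.6 in MYC tumours (n = 3 each), a change of 0.74 between genotypes (limma adjusted p = 0.00989). Of 19 genes of PRC1, the complex that ubiquitinates histone H2A, 2 rose in MYC livers, Pcgf6 (0.82) and Kdm2b (0.59), both parts of variant forms of the complex, a smaller share than over all genes. In MYC+Ex3 livers 2 rose, Pcgf6 (0.86) and Pcgf2 (0.80), and 2 fell, Phc3 and Rybp (-0.30 and -0.34). In tumours 6 of 18 rose and 1 fell with MYC, a share near that of all genes, and 11 rose and 1 fell with MYC+Ex3, with Pcgf6 the largest in MYC tumours at 1.12. Cbx7, which reads trimethylated lysine 27, was 1.43 ± 0.67 RPKM in MYC and 5.51 ± 2.7 in MYC+Ex3 tumours, a change of 1.39 (limma adjusted p = 0.00511), and Cbx8, another reader of the mark, fell by 1.07 (adjusted p = 0.0498).

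Of 15 readers and repair factors of methylcytosine, 4 rose and 0 fell in MYC livers, with Gadd45b (1.3), Mbd3 (0.57) and Tdg (0.52) at the top, and in MYC+Ex3 livers 4 rose and Zbtb4 fell by 0.60. Tdg, the glycosylase that removes oxidised methylcytosine, rose by 0.93 in MYC and 1.44 in MYC+Ex3 tumours. In tumours 8 rose and 1 fell with MYC, and 9 rose and 1 fell with MYC+Ex3. The member that fell in both was Zbtb4, which binds methylated CpG, at -0.64 and -1.16. Of 15 enzymes of methyl donors and cofactors, 4 rose in MYC livers, led by Mat2a (0.76) and Idh3a (0.73). Mat2a, which makes S-adenosylmethionine outside the resting hepatocyte, was 66.1 ± 4.4 RPKM in wild-type and 116 ± 32 in MYC livers, while Mat1a, its counterpart in the mature liver, named after its values were seen, was at 284 ± 38 and 229 ± 40 and did not pass (limma adjusted p = 0.167). In MYC+Ex3 livers 4 rose and Bhmt, which remethylates homocysteine, fell by 0.45. In tumours 6 of 15 rose in each comparison, a share near that of all genes, with Idh3a at 1.14 and 1.53 and Mat2a at 0.81 and 1.07, and in MYC+Ex3 tumours Bhmt fell by 1.33 and Idh1 fell by 0.53. Of 6 lysine 27 demethylases and members of the BAP1 complex, which removes ubiquitin from H2A, 0 were called in MYC livers, 2 rose in MYC tumours (Asxl1 and Bap1, 0.69 and 0.46) and 4 rose in MYC+Ex3 tumours. The median changes of the 5 lists in MYC livers were 0.33, 0.07, 0.13, -0.11 and 0.14 in the order given, against 0.07 for all genes.

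Genes that these enzymes are known to keep silent were mostly too low to test. Of 15 germline genes with promoters methylated in somatic cells, 2 were tested in the first arm and 1 in the second. None was called in MYC livers, and Sycp3, a protein of the meiotic chromosome axis, fell by 1.01 in MYC+Ex3 tumours (limma adjusted p = 0.0194). Of 23 developmental genes bound by Polycomb in many cell types, 6 were tested in the first arm and 2 in the second. Bmp2, a secreted growth factor, fell by 0.73 in MYC livers (limma adjusted p = 0.0455), by 1.4 in MYC tumours and by 1.81 in MYC+Ex3 tumours, and 0 of the list rose. Bmp2 is known to be made by liver endothelial cells. Of 7 endothelial markers 2 fell in MYC livers and 5 in each tumour comparison, and their part in the Bmp2 values was not tested.

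The genes most like each member across libraries were sought by Pearson's r of log2(RPKM + 1), as a description without a test, since the libraries share their groups. Over the 20 first-arm livers those closest to Uhrf1 were Mms22l (0.993), Rrm1 (0.989) and Exo1 (0.989), and over the 13 second-arm libraries Lig1 (0.997), all genes of DNA replication or repair. Dnmt1 was closest to Mdc1 (0.988) in the first arm and to Bub1b (0.990) in the second. Ezh2 was closest to Supt16 (0.935), a histone chaperone of replication and transcription, and to Fbxo5 (0.990). In the second arm Suz12 was closest to Cdt1 (0.996), a replication licensing factor. Eed was closest to Nudt21 (0.936) and Cpsf2 (0.983), both of messenger RNA 3′ end processing. For Tet2 the highest values were 0.797 with S1pr3 and 0.939 with Chka, and for Tet3 0.911 with Tnrc6c and 0.916 with Srrm2.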

How the data were processed

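Total RNA of 33 livers and nodules was sequenced from strand-specific libraries, per the labels' protocols. Per the submitters' processing notes, TopHat2 2.0.8, SAMtools, featureCounts 1.4.5-p1, DESeq2 and the build mm9 were used. How each was set is not given in the sources used here. The authors' deposited table holds RPKM per library, and for their own comparisons a log2 fold change and an adjusted p-value, which are quoted only under that name. Read numbers within 0.001 of whole were recovered for 100% of the 20485 genes above 0, as the smallest that give all values of a gene, and these reads serve here only as depth. Groups came from titles and genotype labels, and replicate numbers only name samples and pair nothing.

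The test was limma 3.58.1 (R 4.3.3) on log2(RPKM + 1), two-sided and with variances moderated along a trend in mean level, for genes with an RPKM of at least 1 in at least 3 libraries. Each arm was fitted as a whole and p-values were adjusted by Benjamini-Hochberg over all genes tested. Ratios used exact permutation tests (scipy 1.17.1). The members and lists were chosen with earlier results of these data known, so their calls are not independent evidence. All 10 members are named, and from each further list up to 3 of the largest called changes each way per comparison. The genes most like a member are those with the highest r. Alternatives were a pseudocount of 0.1, no filter or a filter at an RPKM of 5, rescaling by the median ratio, only the groups compared, sample quality weights, a term for keratin reads, only livers with (added after the data were seen) or without them, only S14 or S15 titles, and each library left out.

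Genes are named by the table's symbols. Promoter sequences come from RefSeq (GRCm38.p6), in which all 10 genes matched, while the processing notes name mm9, so no position from the reads is given. Per-sample columns of no sample in the series numbered 0.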

Additional observations from a re-analysis of the deposited data

Results flagged for a closer look

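In groups of 4 to 10 libraries, 3 of 50 sets of values of a member had 1 library far from the others by Dixon's test at the 95% level, where chance alone gives about 1 in 20, here 2.5. Dnmt3b was 5.77 RPKM in MYC liver 1 of day 4, where the other 4 were 3.15 to 3.69. Tet2 was 15.8 RPKM in wild-type liver 3 of day 4, where the other 4 were 8.22 to 9.85, and 7.65 in MYC+Ex3 liver 3, where the other 4 were 9.08 to 9.43.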

How the results depend on the processing

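Over the alternatives other than leaving out a library, the members called numbered 3 to 5 in MYC against wild-type livers (4 in the main test), 3 to 6 in MYC+Ex3 against wild type (4), 2 to 6 in MYC+Ex3 against Ex3 (5), 6 to 8 in MYC tumours (7) and 6 to 8 in MYC+Ex3 tumours (7). The count against Ex3 was 2 with only libraries without keratin reads and 3 with only libraries with them, a set chosen after seeing the data, and both fits hold fewer libraries. With each library left out in turn the counts were 4 to 5, 3 to 5, 4 to 5, 6 to 7 and 7 to 7. The 4 remaining comparisons gave 0 members throughout. The single members called in the main test gave 223 values under the alternatives other than leaving out a library. Of these values 210 stayed called, 13 kept their direction without passing, and 0 reversed. Over all genes, sample quality weights moved the calls in MYC+Ex3 livers from 3301 to 6416 against wild type, from 2893 to 6707 against Ex3 and from 26 to 78 against MYC, in Ex3 against wild type from 18 to 62, and between tumours from 489 to 311. Libraries without keratin reads gave 1249 in place of 3047 in MYC, 2 in place of 18 in Ex3 and 6 in place of 26 in MYC+Ex3 against MYC, and those with them gave 2 in Ex3 and 1660 in place of 2893 in MYC+Ex3 against Ex3. A filter at an RPKM of 5 gave 3636 in place of 5907 and 4278 in place of 7189 in tumours, and 240 in place of 489 between them. Fitting only the groups compared gave 70 between tumours and 10 in MYC+Ex3 against MYC livers, where a pseudocount of 0.1 gave 11 and no filter 10. No paired analysis was possible because replicate numbers only name samples. Low reads limit Tet1, with 5 to 79 per library, and in livers without MYC of the first arm Uhrf1, with 15 to 51, and Dnmt3b, with 15 to 144.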
